A study of Mus musculus with 18 samples.

Results

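NF-kB is a family of transcription factors built as dimers of subunits, and a set of inhibitors holds the dimers in check. The account here covers 10 of the family's genes among 24062 gene symbols counted by RNA sequencing in mouse hematopoietic progenitor lines. They were chosen by name: the 5 subunit genes Rela, Relb, Rel, Nfkb1 and Nfkb2, and 5 genes of inhibitors and IkB-like regulators, Nfkbia, Nfkbie, Nfkbiz, Tnfaip3 and Bcl3. Earlier results of these data were known when these genes and the pathway and marker lists below were chosen. Their shares set beside those of all genes are therefore descriptions and carry no test. All 10 passed the filter on low counts that left 12859 genes for testing.

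In resting cells IkB proteins keep NF-kB dimers in the cytoplasm. Signals from receptors for TNF, interleukin 1 or microbial products lead the IkB kinase complex to mark IkB for destruction, which frees dimers of Rela or Rel with the Nfkb1 product p50 (the canonical route). Receptors such as the lymphotoxin beta receptor act more slowly, through the kinase Map3k14 (NIK), to process the Nfkb2 product p100 to p52, the partner of Relb (the noncanonical route). Several of the genes are themselves NF-kB targets, so that an active pathway makes more of its own inhibitors. In myeloid cells NF-kB is best known for the inflammatory response and for macrophage function.

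The cells were lineage-negative bone marrow cells from Ddx41-floxed mice, immortalized by a retrovirus carrying the leukemia fusion gene MLL-AF9, and grown with IL-3, SCF and IL-6. They express Rosa-CreERT, a Cre recombinase that 4-hydroxytamoxifen activates. Ddx41 encodes a DEAD-box RNA helicase. The FF 4OHT group (labelled genotype -/-) and the FF ethanol group (flox/flox) come from the line with both Ddx41 alleles floxed. The Het 4OHT group (+/-) and the Het ethanol group (+/flox) carry a single floxed allele, and the WT 4OHT and WT ethanol groups (+/+) carry none. All 6 groups share the MLL-AF9 fusion, the CreERT protein and the cytokines, and treatment lasted 48 h, with 4-hydroxytamoxifen (4OHT) at 1 µM or with its solvent ethanol. Each group has 3 libraries, lettered A, B and C. Nothing in the labels says that a genotype is more than 1 line, or that a letter is a culture of its own. The spread that the p-values rest on may therefore be technical, and an effect of genotype cannot be told apart from a difference between lines.

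Library totals ranged from 24730213 to 49277884 counts. Levels are given as CPM, read counts set relative to the library total after TMM scaling, fold changes as log2 values from edgeR's quasi-likelihood test, fitted to all 18 libraries, and a call means a Benjamini-Hochberg adjusted p of at most 0.05 over all tested genes. Ddx41 itself was at 14.6, 16.5 and 17.7 CPM in FF 4OHT libraries A, B and C, against 112, 82.0 and 73.7 CPM in FF ethanol (log2 -2.45 ± 0.17 SE, edgeR adjusted p = 8.09e-07). It averaged 47.6 ± 9.42 CPM in Het 4OHT and 72.8 ± 5.68 CPM in Het ethanol (SD, n = 3 each; edgeR adjusted p = 0.86), and 85.7 ± 9.1 CPM in WT 4OHT and 83.8 ± 5.04 CPM in WT ethanol. Ddx41 counts thus separated the FF arms. They also separated the Het arms, at 41.3 to 58.4 CPM in 4OHT against 68 to 79.1 CPM in ethanol. This Het difference of -0.61 ± 0.16 SE (log2) did not pass the threshold over all tested genes. The WT arms overlapped. On other genes 3 libraries still stood apart. The library labelled FF ethanol C had 86.3 CPM of the Y-linked gene Eif2s3y, which had no count in the other 5 FF libraries. The library labelled WT 4OHT C had none, where the other 5 WT libraries had 66.4 to 101 CPM. The Het libraries had 70.9 to 87.8 CPM of it. Comparisons of FF with Het or WT thus also set libraries mostly without this Y-linked gene's counts against libraries mostly with them. Tgm2, at 14.2 to 45.1 CPM in the FF and Het 4OHT libraries and 237 to 709 CPM in the FF and Het ethanol libraries, was at 480 CPM in the library labelled WT 4OHT C and at 25.4 CPM in the library labelled WT ethanol C. These values go against the labels of the 3 libraries. Whether labels were exchanged was not tested, and the groups keep the labels as given, so the values of FF ethanol, WT ethanol and WT 4OHT each include a library whose label is in doubt. Several results that rest on these 3 libraries are also given without them, and the others are given only with them. The 45S ribosomal RNA precursor Rn45s also varied in the FF 4OHT libraries, at 5987, 18286 and 41159 CPM in A, B and C, against 3828 to 6464 CPM in FF ethanol.

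**Figure D1:**
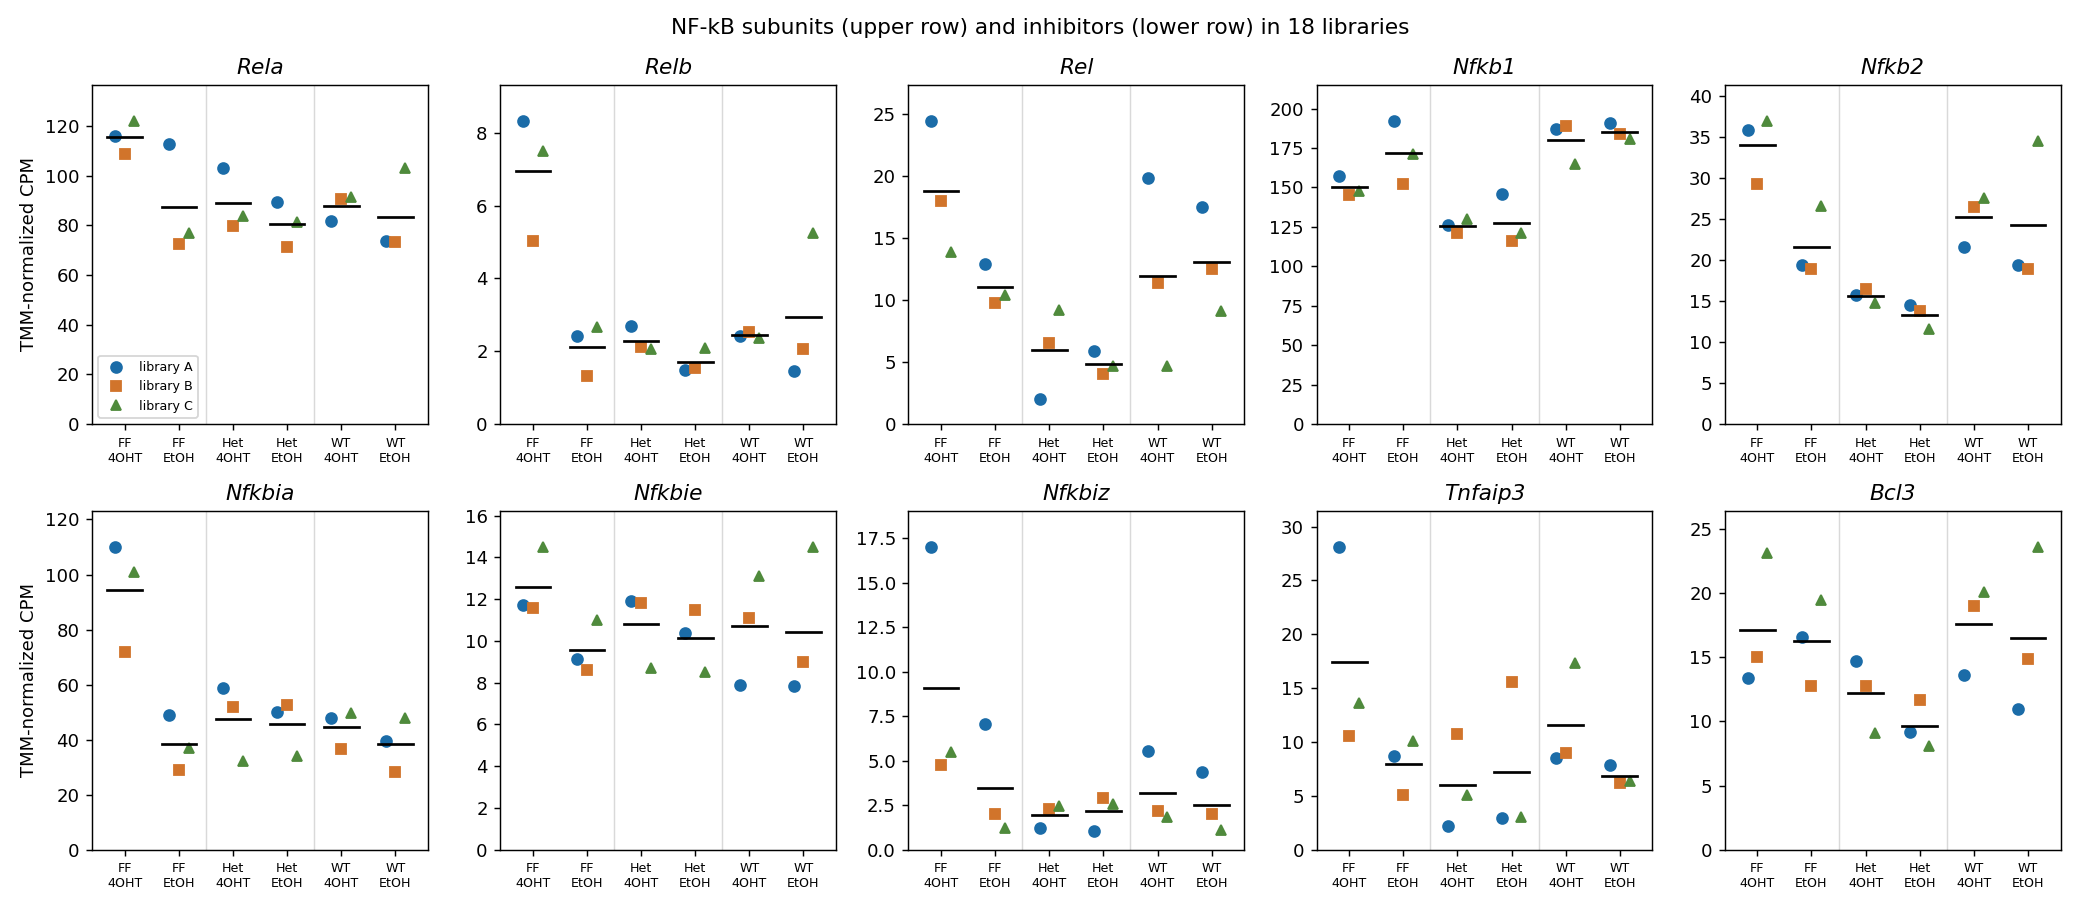
TMM-normalized CPM (vertical axes, linear, from 0) of each of the 10 genes in the 18 libraries, subunits in the upper row and inhibitors in the lower, with a point per library (shape and colour for the letter) and a bar at each group mean. Relb and Nfkbia in FF 4OHT lie above every FF ethanol library, and the library labelled WT ethanol C (5.26 CPM for Relb) lies within the FF 4OHT range for Relb.

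NF-kB dimers bind the kappa B site, a short DNA element, and the stretches before the start sites of these genes show where such letters lie. The 10-base kappa B consensus was searched on both strands in the 250 bases upstream of each start in the RefSeq promoter table (GRCm38.p6), which holds 7 of the 10 genes: Rela, Rel, Nfkb2, Nfkbia, Nfkbie, Tnfaip3 and Bcl3. Relb, Nfkb1 and Nfkbiz were not searched. A match stood in the windows of 5 of the 7 genes, against 8.23% of all 27025 genes in the table (and 7.25% of its 32851 windows). The stretches below are shown because they hold the matches (for Nfkb2, 2 of 4 such stretches). The matches are in capitals. The stretches are written 5′ to 3′ on the gene's strand, and matches that overlap each other are capitalized as 1 run. A match describes letters and is not a shown binding site.
Nfkbia, chr12:55492648-55492701, minus strand: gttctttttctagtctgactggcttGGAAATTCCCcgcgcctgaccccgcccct
Rel, chr11:23771026-23771086, minus strand: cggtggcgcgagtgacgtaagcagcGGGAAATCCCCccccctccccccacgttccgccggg
Nfkbie, chr17:45555569-45555628, plus strand: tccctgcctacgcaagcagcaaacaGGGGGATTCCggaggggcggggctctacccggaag
Tnfaip3, chr10:19015411-19015447, minus strand: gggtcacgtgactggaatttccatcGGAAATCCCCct
Tnfaip3, chr10:19015514-19015547, minus strand: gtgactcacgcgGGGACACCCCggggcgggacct
Nfkb2, chr19:46304689-46304717, plus strand: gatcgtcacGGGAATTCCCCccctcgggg
Nfkb2, chr19:46305695-46305724, plus strand: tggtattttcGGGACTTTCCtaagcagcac

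Counted back from the start (-1 is the base before it), the Nfkbia match began at -29 and the nearer Tnfaip3 match at -12. The Rel run began at -92 and the Nfkbie match at -106. Nfkb2 has several annotated starts, and its stretches lie within annotated exons. Tnfaip3 also has a further window, which had no match. Its stretches shown above lie inside the gene as GENCODE M21 annotates it (19000910 to 19015657), outside annotated exons. The windows of Rela and Bcl3 had no match, which says only that these letters are not in those windows.

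Per kilobase of exon, averaged over the 18 libraries, the inhibitor Nfkbia (32 CPM per kb) and the subunit Rela (29.5) stood highest, and Nfkb1 followed at 13. Bcl3 was at 6.02, Nfkb2 at 4.87 and Nfkbie at 3.52 CPM per kb. Rel at 1.46, Tnfaip3 at 1.31, Relb at 0.791 and Nfkbiz at 0.743 CPM per kb were the least abundant. On this scale Nfkbia averaged 58.6 CPM per kb in FF 4OHT, against 23.8 in FF ethanol, and Rela 37.7 against 28.5.

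In the FF line, where 4OHT removes both Ddx41 alleles, Relb and Nfkbia rose, with 3.27-fold and 2.46-fold higher levels in 4OHT than in ethanol, and no other gene of the 10 passed the threshold. Both are known NF-kB target genes: Relb is the subunit of the noncanonical route, and Nfkbia encodes IkB alpha, the inhibitor that is remade once NF-kB is active. The 2 calls among 10 genes stand against 5.16% of all tested genes called higher in this comparison, and 13.4% called in either direction. Every FF 4OHT library lay above every FF ethanol library for 6 of the 10 (Relb, Rel, Nfkb2, Nfkbia, Nfkbie and Tnfaip3), against 18.7% of all tested genes. The log2 fold change was above 0 for 9 of the 10, with a median of 0.71, against -0.02 over all tested genes.

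Among the subunits, Relb (chromosome 7, 19606217 to 19629438 in GENCODE M21, GRCm38) was at 8.32, 5.04 and 7.49 CPM in FF 4OHT libraries A, B and C, against 2.41, 1.31 and 2.66 CPM in FF ethanol. The lowest FF 4OHT library therefore had more Relb than the highest FF ethanol library. The difference was 1.71 ± 0.39 on the log2 scale (edgeR adjusted p = 0.00991), and it was 1.90 (edgeR adjusted p = 0.0181) without the libraries labelled FF ethanol C and WT 4OHT C. With any single library left out the adjusted p was at most 0.0457.

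Nfkb2, which encodes p100, the precursor of Relb's partner p52, was at 35.8, 29.3 and 36.9 CPM in FF 4OHT, against 19.4, 18.9 and 26.6 CPM in FF ethanol. The groups did not overlap, but the difference of 0.65 ± 0.21 (log2) missed the threshold with an edgeR adjusted p of 0.0509. It passed at 0.83 (edgeR adjusted p = 0.0326) without the libraries labelled FF ethanol C and WT 4OHT C, and at an adjusted p of 0.0179 with DESeq2. It missed without FF ethanol A (0.58, edgeR adjusted p = 0.151) and with scaling by library totals (0.68, edgeR adjusted p = 0.051). Of the 29 alternatives tried 12 called Nfkb2, and the highest adjusted p was 0.165. The library labelled FF ethanol C held the highest Nfkb2 level of its group. In the annotation 6.52% of Nfkb2's exon bases overlap exons of Psd on the other strand. Psd had 131 counts over all 18 libraries.

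Rel, the c-Rel subunit of myeloid and lymphoid cells, was at 24.4, 18 and 13.9 CPM in FF 4OHT, against 12.9, 9.74 and 10.4 CPM in FF ethanol. Its log2 difference of 0.77 ± 0.48 did not pass (edgeR adjusted p = 0.321), although no FF ethanol library reached the lowest FF 4OHT one. Rela, the main activating subunit p65, was at 116, 109 and 122 CPM in FF 4OHT, against 113, 72.6 and 77 CPM in FF ethanol. FF ethanol library A lay among the FF 4OHT libraries, and the difference of 0.40 ± 0.17 did not pass (edgeR adjusted p = 0.133). Without FF ethanol A it was 0.63 (edgeR adjusted p = 0.0238). Without the libraries labelled FF ethanol C and WT 4OHT C it was 0.31 (edgeR adjusted p = 0.324). Without these and WT ethanol C it was 0.32 (edgeR adjusted p = 0.237). Nfkb1, whose precursor p105 gives p50, had the single negative value of the 10. It was at 157, 145 and 148 CPM in FF 4OHT, against 192, 152 and 171 CPM in FF ethanol, and these ranges overlapped (log2 -0.19 ± 0.11, edgeR adjusted p = 0.258).

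Among the inhibitors, Nfkbia (chromosome 12, 55489410 to 55492647), which carries the promoter match shown above, was at 110, 72 and 101 CPM in FF 4OHT, against 49, 29.1 and 37 CPM in FF ethanol. All FF 4OHT libraries lay above all others in the study for this gene, the highest elsewhere being 58.8 CPM in Het 4OHT A. The difference from FF ethanol was 1.30 ± 0.26 on the log2 scale (edgeR adjusted p = 0.00464). It was 1.27 (edgeR adjusted p = 0.0193) without the libraries labelled FF ethanol C and WT 4OHT C, and with any single library left out the adjusted p was at most 0.0253.

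Tnfaip3 encodes A20, a ubiquitin-editing enzyme that ends signalling upstream of the IkB kinases. It was at 28.1, 10.6 and 13.6 CPM in FF 4OHT, against 8.73, 5.05 and 10.1 CPM in FF ethanol. The groups did not overlap, but FF 4OHT A stood far above the other libraries, and the difference of 1.13 ± 0.62 did not pass (edgeR adjusted p = 0.256). Nfkbiz encodes IkB zeta, a nuclear IkB-like protein that switches on further inflammatory genes. It was at 17, 4.78 and 5.49 CPM in FF 4OHT, against 7.05, 2.03 and 1.25 CPM in FF ethanol. Library A was the highest of its group in both arms, and 1.4 ± 0.69 did not pass (edgeR adjusted p = 0.199). Without the libraries labelled FF ethanol C and WT 4OHT C, the Tnfaip3 difference was 1.34 (edgeR adjusted p = 0.247). That of Nfkbiz was then 1.00 (edgeR adjusted p = 0.393).

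Nfkbie, the gene of IkB epsilon, was at 11.7, 11.6 and 14.5 CPM in FF 4OHT, against 9.13, 8.6 and 11 CPM in FF ethanol. These groups were narrowly separate, with a log2 difference of 0.39 ± 0.24 (edgeR adjusted p = 0.313). Bcl3, a nuclear IkB-like partner of p50 and p52 dimers, was at 13.4, 15 and 23.1 CPM in FF 4OHT, against 16.6, 12.8 and 19.5 CPM in FF ethanol. Its ranges lay across each other, and the difference was 0.08 ± 0.29 (edgeR adjusted p = 0.892).

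**Figure D2:**
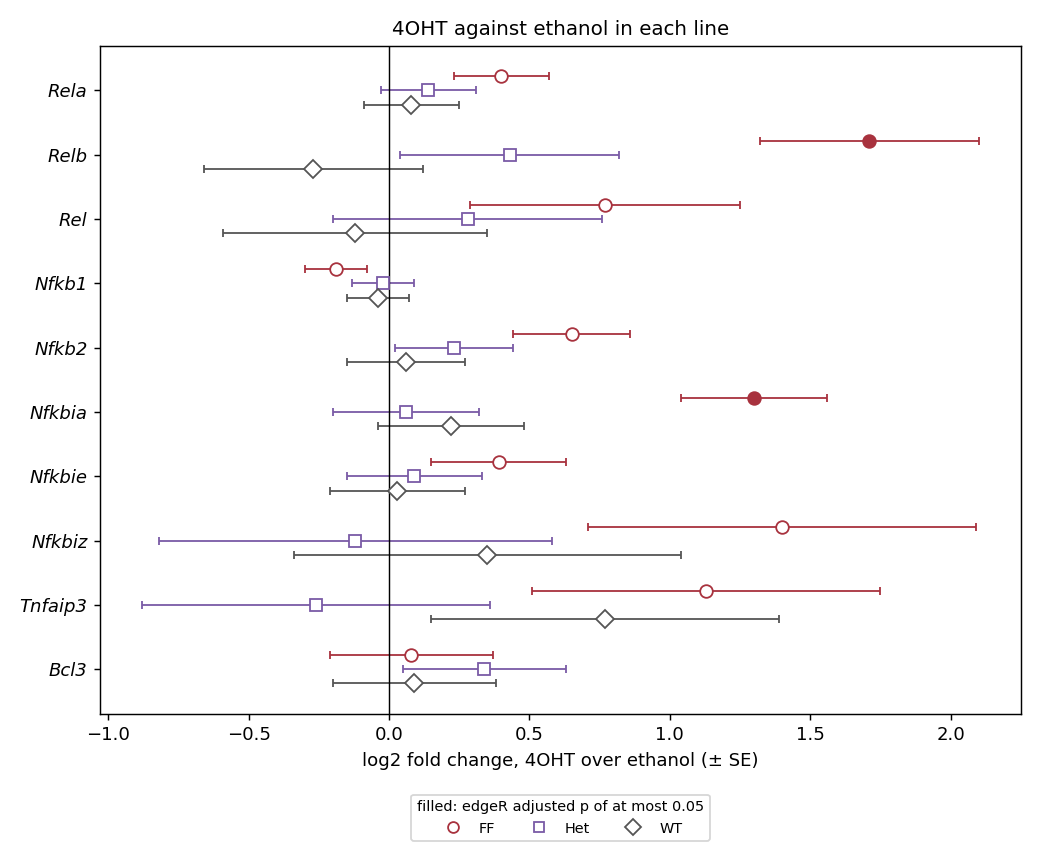
Log2 fold change of 4OHT over ethanol (horizontal axis) with its standard error for the 10 genes in the FF, Het and WT lines; filled symbols have an edgeR adjusted p of at most 0.05. Only Relb (1.71) and Nfkbia (1.30) in FF are filled, and the Het and WT values lie between -0.27 and 0.77.

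In the Het line none of the 10 genes passed the threshold, where 0.0156% of all tested genes did with edgeR (2 genes; 246 at an unadjusted p under 0.05, 17 with DESeq2, 2 with limma voom and 1 with a replicate block). The 10 log2 values lay between -0.26 for Tnfaip3 and 0.43 for Relb. Relb was at 2.70, 2.11 and 2.06 CPM in Het 4OHT, against 1.49, 1.53 and 2.09 CPM in Het ethanol, and Nfkbia at 58.8, 51.7 and 32.4 CPM against 50.1, 52.7 and 33.9 CPM. Both genes overlapped between the arms, and for Nfkbia the letter C was lowest in each. Nfkb2 alone had no overlap, at 15.7, 16.4 and 14.7 CPM in Het 4OHT against 14.5, 13.8 and 11.6 CPM in Het ethanol (log2 0.23 ± 0.21, edgeR adjusted p = 1). The share of all tested genes without overlap was not counted in the Het line. Tnfaip3 spread widely in the Het line, at 2.18, 10.7 and 5.04 CPM in 4OHT and 2.96, 15.6 and 3 CPM in ethanol, with library B highest in both arms.

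In the WT line, which carries CreERT but no floxed allele, none of the 10 passed either, as for 0% of all tested genes with edgeR (275 at an unadjusted p under 0.05, 4 with DESeq2 and none with limma voom). Nfkbia was at 47.9, 36.7 and 49.6 CPM in WT 4OHT, against 39.4, 28.4 and 47.7 CPM in WT ethanol, and its log2 difference was 0.22 ± 0.26 (edgeR adjusted p = 1). Relb was at 2.43, 2.54 and 2.37 CPM in WT 4OHT, against 1.47, 2.07 and 5.26 CPM in WT ethanol. Tnfaip3 was at 8.55, 8.98 and 17.3 CPM in WT 4OHT, against 7.83, 6.24 and 6.39 CPM in WT ethanol, with no overlap and a log2 difference of 0.77 ± 0.62 (edgeR adjusted p = 1). The share of all tested genes without overlap was not counted in the WT line. The Tnfaip3 difference was 0.36 without the library labelled WT 4OHT C, and 0.32 without all 3 libraries that stood apart. For Relb, the library labelled WT ethanol C had more Relb than FF 4OHT library B, and it was also the highest of its group for Rela (103 CPM), Nfkb2 (34.5), Nfkbia (47.7), Nfkbie (14.5) and Bcl3 (23.6). With it, Relb's log2 difference in WT was -0.27 ± 0.39, and without it and the libraries labelled FF ethanol C and WT 4OHT C it was 0.49, both with an edgeR adjusted p of 1.

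Whether the FF response differed from those of the other lines was tested as a difference of responses. Relb responded more in FF than in WT by 1.98 ± 0.55 on the log2 scale, which did not pass (edgeR adjusted p = 0.0773), and more than in Het by 1.28 ± 0.55 (edgeR adjusted p = 0.261). Nfkbia responded more in FF than in WT by 1.08 ± 0.37 (edgeR adjusted p = 0.158) and more than in Het by 1.23 ± 0.37 (edgeR adjusted p = 0.0944). In the fit without a replicate block none of the 10 genes passed in either difference, against 2.3% of all tested genes for FF minus WT and 2.5% for FF minus Het. With DESeq2, Relb passed for FF minus WT (2.01, adjusted p = 0.0129) and Nfkbia for FF minus Het (1.26, adjusted p = 0.0246). Relb's value for FF minus WT was 1.26 (edgeR adjusted p = 0.175) without the library labelled WT ethanol C, 2.29 (edgeR adjusted p = 0.0497) without WT ethanol A and 1.42 (edgeR adjusted p = 0.194) without all 3 libraries that stood apart. Without the libraries labelled FF ethanol C and WT 4OHT C, Nfkbia's value for FF minus WT was 1.14 (edgeR adjusted p = 0.242). Its value for FF minus Het was then 1.21 (edgeR adjusted p = 0.14). Without all 3 libraries these values were 0.95 (edgeR adjusted p = 0.386) and 1.24 (edgeR adjusted p = 0.123). The differences from WT and from Het share the FF libraries.

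A ratio of genes within a library does not depend on how libraries are scaled. Nfkbia had 94.6, 66.3 and 82.7 counts per 100 Rela counts in FF 4OHT libraries A, B and C, against 43.2, 40.1 and 48.0 in FF ethanol. The FF 4OHT values all lay above the FF ethanol ones. In Het the ratio was 57.1, 64.7 and 38.7 in 4OHT and 56.0, 73.8 and 41.5 in ethanol, and in WT 58.5, 40.5 and 54.3 in 4OHT and 53.5, 38.7 and 46.3 in ethanol. Het ethanol B, at 73.8, exceeded the lowest FF 4OHT value. Nfkb2 had 22.8, 20.3 and 24.9 counts per 100 Nfkb1 counts in FF 4OHT, against 10.1, 12.5 and 15.6 in FF ethanol. These 3 values were above those of all other libraries, of which the one labelled WT ethanol C was highest at 19.1. In the other WT and the Het libraries this ratio lay between 9.54 and 16.8. The ratios show unequal changes within a library and were not tested.

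**Figure D3:**
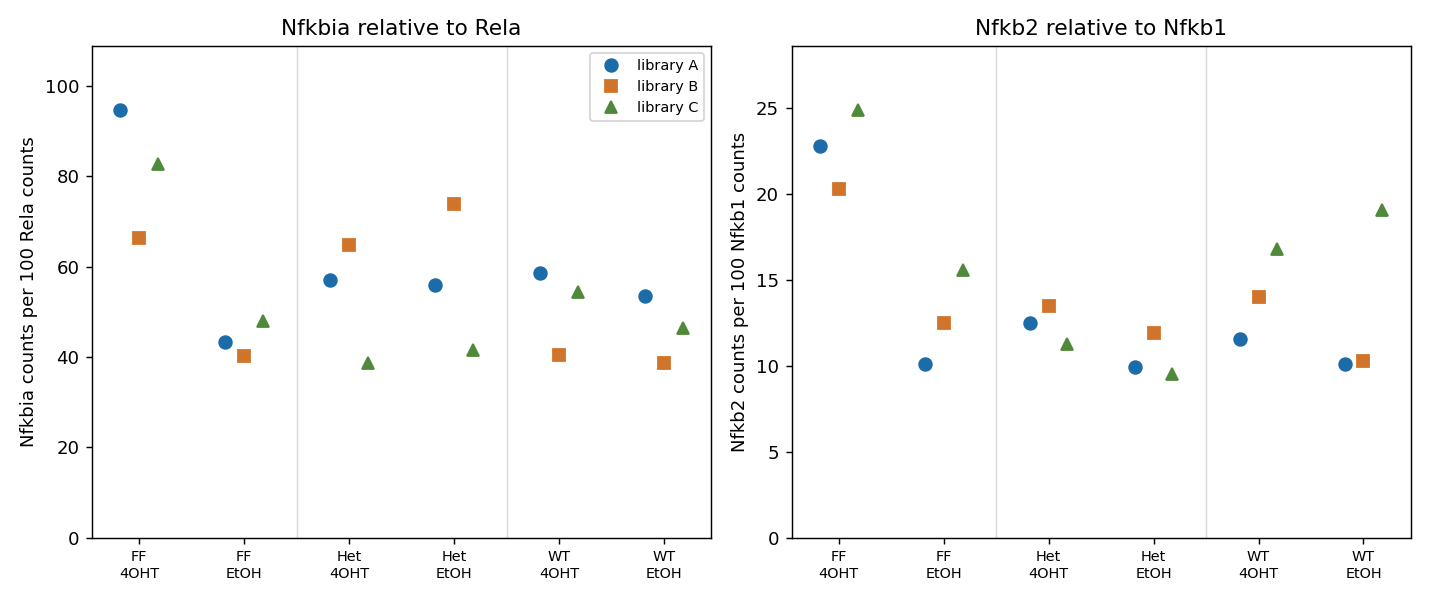
Counts of Nfkbia per 100 counts of Rela (left) and of Nfkb2 per 100 counts of Nfkb1 (right) in each library, on linear axes from 0, with a point per library. The FF 4OHT libraries sit at 66.3 to 94.6 and at 20.3 to 24.9, above the FF ethanol libraries at 40.1 to 48.0 and at 10.1 to 15.6.

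The lines were also compared without deletion, in ethanol. In Het ethanol, 3 subunit genes were lower than in WT ethanol. Nfkb1 was at 146, 116 and 121 CPM in Het ethanol libraries A, B and C, against 191, 184 and 181 CPM in WT ethanol (log2 -0.54 ± 0.11, edgeR adjusted p = 0.00167). Nfkb2 was at 14.5, 13.8 and 11.6 CPM, against 19.4, 18.9 and 34.5 CPM in WT ethanol (-0.87 ± 0.21, edgeR adjusted p = 0.00683). Rel was at 5.92, 4 and 4.68 CPM, against 17.5, 12.5 and 9.08 CPM in WT ethanol (-1.41 ± 0.49, edgeR adjusted p = 0.0459). These 3 calls of 10 stand against 10.4% of all tested genes called lower in this comparison and 23.7% called in either direction. None of these groups overlapped, but the share of all tested genes without overlap was not counted for this comparison. Without the library labelled WT ethanol C, Nfkb1 kept its call (-0.50, edgeR adjusted p = 0.00853), while Nfkb2 (-0.47, edgeR adjusted p = 0.063) and Rel (-1.56, edgeR adjusted p = 0.054) missed the threshold. Without all 3 libraries that stood apart, all of these genes were called. The Rel call was lost in 20 of the 29 alternatives tried. It missed the threshold when libraries were scaled by their totals (-1.27, edgeR adjusted p = 0.0728), a scaling under which the median of all genes was 0.10 in place of -0.03 and 2185 genes were called higher and 900 lower, in place of 1714 and 1335.

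FF ethanol had more Nfkb1 and Nfkb2 than Het ethanol. Nfkb1 was at 192, 152 and 171 CPM in FF ethanol, against the Het ethanol values above (log2 0.43 ± 0.11, edgeR adjusted p = 0.0122), and Nfkb2 differed by 0.70 ± 0.21 (edgeR adjusted p = 0.0322). These 2 calls of 10 stand against 7.74% of all tested genes called higher and 16.8% called in either direction. Both missed the threshold when libraries were scaled by their totals, at adjusted p of 0.0534 for Nfkb1 and 0.0836 for Nfkb2, where the median of all genes was -0.11 in place of 0.02 and 657 genes were called higher and 1549 lower, in place of 995 and 1163. Nfkb2 missed it without the libraries labelled FF ethanol C and WT 4OHT C (0.52, edgeR adjusted p = 0.136), and passed it without all 3 libraries that stood apart (0.50, edgeR adjusted p = 0.0329). Rel (1.18 ± 0.49, edgeR adjusted p = 0.117) and Bcl3 (0.76 ± 0.29, edgeR adjusted p = 0.088) had no overlap between the lines and did not pass. The share of all tested genes without overlap was not counted here either. This comparison and that of Het with WT share the Het ethanol libraries.

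Between FF ethanol and WT ethanol none of the 10 passed, as for 0% of all tested genes with edgeR (707 at an unadjusted p under 0.05, 21 with DESeq2, none with limma voom). Without the libraries labelled FF ethanol C and WT 4OHT C, 614 genes were called in this comparison, and again none of the 10. The log2 values of the 10 lay between -0.47 for Relb and 0.47 for Nfkbiz, and every gene's libraries overlapped.

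**Figure D4:**
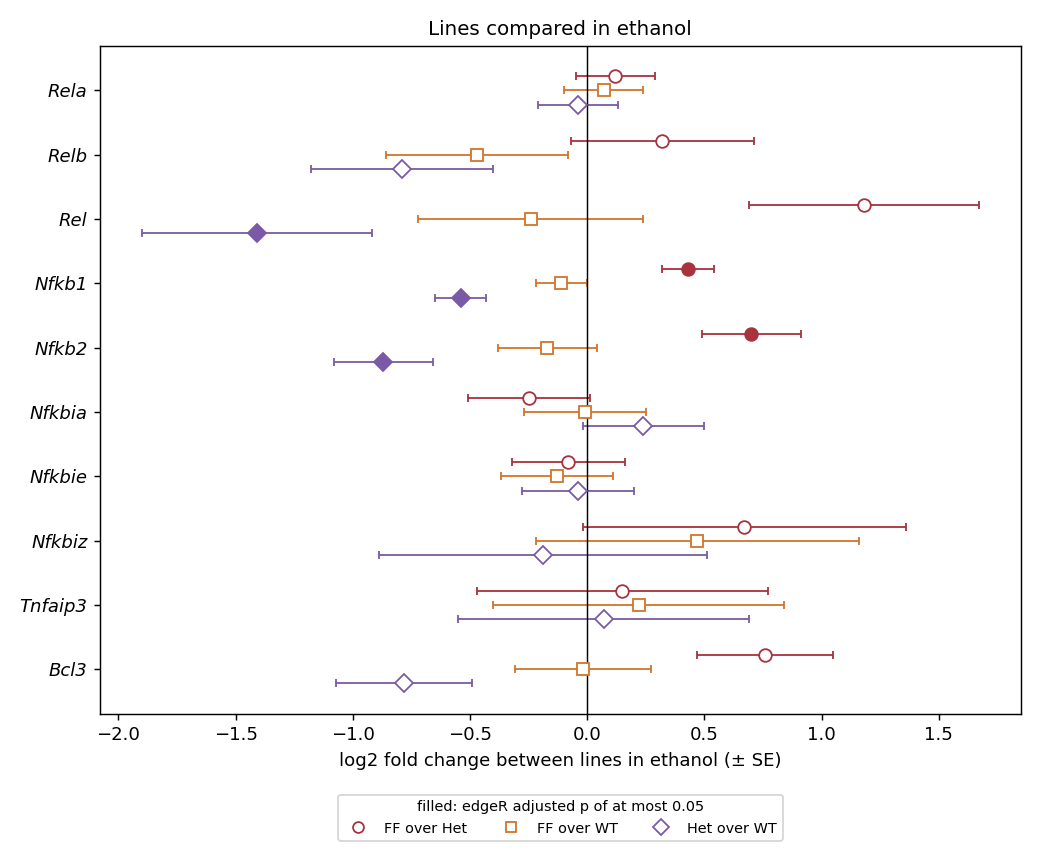
Log2 fold change between lines in ethanol (horizontal axis) with its standard error for the 10 genes, as FF over Het, FF over WT and Het over WT; filled symbols have an edgeR adjusted p of at most 0.05. The filled symbols are Nfkb1 and Nfkb2 in FF over Het (0.43 and 0.70) and Rel, Nfkb1 and Nfkb2 in Het over WT (-1.41, -0.54 and -0.87).

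The rest of the pathway was followed with 95 listed genes, of which 87 were tested. In FF 9 of these rose (10.3%) and 3 fell (3.45%) with 4OHT, against the 5.16% of all tested genes that rose and the 8.29% that fell. Among 14 tested receptors and ligands, Tlr2 and Il1b rose and none fell, with a median log2 difference of 0.40. Tlr2, a receptor for bacterial lipopeptides, was at 57.2, 64.3 and 74.5 CPM in FF 4OHT, against 24.2, 21.6 and 23.1 CPM in FF ethanol (1.51 ± 0.21, edgeR adjusted p = 0.000407). It also passed in the difference from the WT response (1.39 ± 0.29, edgeR adjusted p = 0.0236), and not in that from the Het response (1.09 ± 0.29, edgeR adjusted p = 0.0625). Il1b, the gene of interleukin 1 beta, was at 2.77, 2.50 and 1.96 CPM in FF 4OHT, against 0.938, 0.249 and 0.342 CPM in FF ethanol (2.25 ± 0.69, edgeR adjusted p = 0.0422). That call ended with the loss of any of 13 single libraries, with an adjusted p of up to 0.14, and without all 3 libraries that stood apart (2.04, edgeR adjusted p = 0.054). It was kept without FF ethanol C and WT 4OHT C alone (2.04, edgeR adjusted p = 0.045).

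Of 20 tested adaptors and ubiquitin ligases none rose and 3 fell, beside 8.29% of all tested genes called lower. Each is part of signalling towards the IkB kinases. Irak1, a kinase of the Toll-like receptor route, averaged 148 ± 4.76 CPM in FF 4OHT and 211 ± 26.9 CPM in FF ethanol (log2 -0.51 ± 0.11, edgeR adjusted p = 0.00554). Rbck1 averaged 120 ± 6.53 and 156 ± 6.46 CPM (-0.37 ± 0.09, edgeR adjusted p = 0.0164), and Sharpin 40.7 ± 2.08 and 63.2 ± 15.4 CPM (-0.64 ± 0.17, edgeR adjusted p = 0.021; SD, n = 3 each). Rbck1 and Sharpin encode subunits of the linear ubiquitin ligase. The Rbck1 call was lost (-0.35, edgeR adjusted p = 0.0566) without the libraries labelled FF ethanol C and WT 4OHT C, and was made without all 3 libraries that stood apart (-0.34, edgeR adjusted p = 0.033). The loss of any of 3 single libraries ended it for Rbck1 and any of 4 for Sharpin. Rbck1 also passed in the difference from the Het response (-0.53 ± 0.13, edgeR adjusted p = 0.0477). It was the 1 gene of the 87 called there, and it did not pass in the difference from the WT response (-0.47 ± 0.13, edgeR adjusted p = 0.0871).

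Of 11 tested kinases and kinase partners, Map3k8 and Map3k14 rose and none fell, beside 5.16% of all tested genes called higher, with a median of -0.01. Map3k8, also called Tpl2, whose protein is held by p105, was at 7.09, 7.57 and 6.37 CPM in FF 4OHT, against 2.57, 3.48 and 2.69 CPM in FF ethanol (log2 1.26 ± 0.28, edgeR adjusted p = 0.00711). Map3k14, the kinase of the noncanonical route that Relb and Nfkb2 serve, was at 14.3, 17.6 and 22 CPM in FF 4OHT, against 10.5, 10.2 and 10.3 CPM in FF ethanol (0.80 ± 0.22, edgeR adjusted p = 0.0233). Its groups did not overlap, and the call was lost (0.80, edgeR adjusted p = 0.0553) without the libraries labelled FF ethanol C and WT 4OHT C, and without any of 5 single libraries. It was made without all 3 libraries that stood apart (0.80, edgeR adjusted p = 0.0376).

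Among 14 other inhibitors the single call in FF was Tnip3, beside 5.16% of all tested genes called higher. In ethanol it was also called higher in Het than in WT, and lower in FF than in Het. Tnip3 was named after its values were seen, since it lies under the 1 CPM set for naming. It was at 0.872, 0.682 and 0.624 CPM in FF 4OHT, against 0.0408, 0.0711 and 0.152 CPM in FF ethanol (log2 2.98 ± 0.76, edgeR adjusted p = 0.0164), a call that ended without FF ethanol A. The abundant Tax1bp1, an adaptor of A20, had a log2 difference of -0.34 ± 0.19 (edgeR adjusted p = 0.256), and Itch, a ubiquitin ligase of the same complex, 0.02 ± 0.21 (edgeR adjusted p = 0.965).

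Of 28 tested target genes 4 rose and none fell, beside 5.16% of all tested genes called higher, and the median was 0.45. None of the 28 was called in the difference from the WT response, with a median of 0.09. The same held for the difference from the Het response, with a median of 0.29. Icam1, an adhesion molecule, was at 60, 57.8 and 65.2 CPM in FF 4OHT, against 39.3, 40.2 and 34.4 CPM in FF ethanol (log2 0.68 ± 0.15, edgeR adjusted p = 0.00612). The chemokine Cxcl10 averaged 2.48 ± 1.70 CPM in FF 4OHT and 0.635 ± 0.163 CPM in FF ethanol (1.96 ± 0.52, edgeR adjusted p = 0.0215), the death receptor Fas 10.4 ± 1.10 and 6.32 ± 0.792 CPM (0.72 ± 0.20, edgeR adjusted p = 0.0244), and the acute-phase gene Saa3 18.5 ± 5.10 and 3.03 ± 1.04 CPM (2.61 ± 0.76, edgeR adjusted p = 0.0325; SD, n = 3 each). Without the libraries labelled FF ethanol C and WT 4OHT C the calls of Cxcl10 (1.77, edgeR adjusted p = 0.0665) and Saa3 (2.37, edgeR adjusted p = 0.105) were lost, while Icam1 and Fas kept theirs. Without WT ethanol C as well, Fas was lost too (0.75, edgeR adjusted p = 0.0512). Single libraries ended the calls of Cxcl10 (3 of the 18), Fas (4) and Saa3 (6), and none ended that of Icam1. In the Het line Saa3 was at 53.9, 7.74 and 4.78 CPM in 4OHT and at 21.6, 6.49 and 3.67 CPM in ethanol. Library A of each Het arm thus reached the FF 4OHT levels of Saa3, which were 18.1, 13.7 and 23.8 CPM. Cxcl1, Il6, Csf2 and Cd83 did not pass the count filter. In Het and WT none of the 87 genes was called with 4OHT.

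Monocyte and macrophage markers were higher in the same FF 4OHT libraries. Of 12 such markers 7 rose and none fell in FF with 4OHT, beside 5.16% of all tested genes called higher, with a median log2 difference of 1.03, and their summed level was 4164 to 5216 CPM in FF 4OHT, against 2906 to 3470 CPM in FF ethanol. It was 2230 to 3740 CPM in Het 4OHT and 2677 to 3604 CPM in Het ethanol, and 3057 to 3201 CPM in WT 4OHT and 2910 to 3072 CPM in WT ethanol. None of these markers was at 0. In bulk RNA a change in the share of such cells and a change in RNA per cell cannot be told apart, and their part in the Relb and Nfkbia result was not tested. Of 4 tested dendritic cell markers 2 rose (5.16% of all tested genes did), with summed levels of 8.88 to 14.8 CPM in FF 4OHT against 0.569 to 4.44 CPM in FF ethanol and Siglech at 0. The dendritic sums were higher still in the Het line, at 29 to 65.7 CPM in 4OHT and 40.3 to 86.8 CPM in ethanol. They were 1.53 to 7.77 CPM in WT 4OHT and 0.954 to 2.16 CPM in WT ethanol. Of 9 neutrophil markers 1 rose and 1 fell, with a median of -0.12 and sums of 5158 to 6541 CPM in FF 4OHT against 6135 to 10481 CPM in FF ethanol. The 8 progenitor markers, with 1 lower and none higher, summed to 1994 to 2092 CPM in FF 4OHT and 1977 to 2239 CPM in FF ethanol. Mast cell, lymphoid, erythroid and stromal lists summed to at most 35.4 CPM in every library, with 1 lymphoid marker lower in FF 4OHT and Cd3e, Ms4a1 and Hba-a1 at 0.

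The members differed in how closely they followed each other. Across the 18 libraries Relb had a Pearson r of 0.82 with Rela, 0.80 with Nfkb2 and 0.77 with Nfkbia, while Nfkb1 had 0.11 with Relb and -0.16 with Nfkbia. Nfkb2 and Bcl3 had an r of 0.81, and Rel and Nfkbiz 0.66. These values describe libraries that share lines and letters, and carry no test. Among all tested genes those most like Relb were Nat14 (r = 0.90), Rnf114 (0.90) and Fam212b (0.89), and those most like Nfkbia were Zfp513 (0.89), Trim11 (0.87) and Ctsd (0.87), the last of which encodes the lysosomal protease cathepsin D.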

How the data were processed

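Total RNA from 18 libraries (6 groups of 3) was sequenced. The authors deposited raw read counts, a whole number for each gene symbol and library. The submitters' processing notes name featureCounts 1.5.2 (with Subread), HISAT2 2.0.5, FastQC 0.11.7 and CASAVA 1.4, and the build mm10. The sources used here do not give the strand setting, the annotation or how multi-mapping reads were handled, so that reads of overlapping genes on opposite strands may be mixed. Groups came from the labels. All 153 pairs of libraries differed, the closest with a chi-square of 9.53 per gene.

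Counts were fitted with edgeR 4.0.16 in R 4.3.3: all libraries, a mean per group, TMM, filterByExpr with a minimum count of 10, and the robust quasi-likelihood F test. P-values were adjusted over all 12859 tested genes, with a threshold of 0.05. The code was tested on simulated data. SE is the log2 fold change over the root of F. Exon lengths and coordinates come from GENCODE M21 (GRCm38), promoter sequences from RefSeq.

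The 10 genes, the pathway and marker lists and the alternatives were chosen with earlier results of these data known. From each pathway list the rule names up to 4 called genes of at least 1 CPM with the smallest adjusted p in FF, or the 2 most abundant; for each called gene of the 10 it names the 3 genes with the highest r of log2 CPM (prior count 2). Emr1 in the table stands for Adgre1.

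Letters recur across groups. Deviations from group means correlated at 0.48, 0.70 and 0.40 for A, B and C between the Het arms, so the letters pair Het libraries, and the replicate block changed none of the 10 genes' calls there. The fits were repeated with DESeq2 1.42.0 or limma 3.58.1 voom as the test, scaling by library total or DESeq2 size factors, a stricter filter (3 libraries at 5 CPM or more) or none, the compared groups alone, a replicate block, an adjusted p of 0.01, each library left out in turn, and fits without 2 or 3 libraries that stood apart.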

Additional observations from a re-analysis of the deposited data

Results flagged for a closer look

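The fall of Ddx41 differed between lines by a test of the difference itself. Its log2 response to 4OHT in FF lay below that in WT by a difference of -2.49 ± 0.23 (edgeR adjusted p = 5.65e-05) and below that in Het by a difference of -1.84 ± 0.23 (edgeR adjusted p = 0.00214). Every FF 4OHT library was under every FF ethanol library, at 14.6 to 17.7 CPM against 73.7 to 112 CPM.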

How the results depend on the processing

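Under 29 alternatives, 2320 fold changes of the 10 genes were recomputed over 8 comparisons: 2259 kept their side of the threshold, 34 lost a call, 27 gained one, and none was called with the opposite sign; 115 had another sign while called in neither fit. Relb and Nfkbia kept their calls in FF 4OHT against FF ethanol under all 29. Where the number of the 10 called moved by over 1.5 times, the cause was not tested. For FF 4OHT against FF ethanol it was 6 with a replicate block (Rela, Relb, Nfkb2, Nfkbia, Nfkbiz and Tnfaip3) in place of 2. The deviations of A, B and C correlated at 0.17, 0.18 and 0.07 in FF, where C includes the library labelled FF ethanol C. These weak values do not settle whether the letters pair the FF libraries. For FF minus WT it was 1 with DESeq2 (Relb), 1 with a replicate block (Nfkbia) and 0 to 1 with a library left out, in place of 0. For FF minus Het it was 1 with DESeq2 (Nfkbia) and 2 with a replicate block (Nfkbia and Nfkbiz), in place of 0. For FF ethanol against Het ethanol it was 0 with library size scaling, 1 (Nfkb1) without the libraries labelled FF ethanol C and WT 4OHT C, 0 at an adjusted p of 0.01 and 0 to 3 with a library left out, in place of 2: 0 without Het ethanol B or C, and 1 without FF ethanol A (Nfkb2), FF ethanol C or Het ethanol A (Nfkb1 each). For Het ethanol against WT ethanol it was 1 (Nfkb1, without WT ethanol C) to 4 (without Het 4OHT A) with a library left out, in place of 3. Among all genes, FF 4OHT against ethanol gave 2763 calls with a replicate block in place of 1729, and FF minus WT gave 643 with DESeq2, 630 with the block, 460 in the compared groups alone, 172 with no count filter, 118 without the libraries labelled FF ethanol C and WT 4OHT C and 72 without these and WT ethanol C, in place of 296. FF minus Het gave 732, 755, 57 and 213 under the first 4 of these, in place of 321. FF against WT in ethanol gave 614 without the libraries labelled FF ethanol C and WT 4OHT C and 479 without these and WT ethanol C, in place of 0. With a minimum of 5 CPM the calls were 2029 in place of 3049 for Het against WT in ethanol and 1399 in place of 2158 for FF against Het. At an adjusted p of 0.01 they were 684 (FF 4OHT against ethanol), 49 (FF minus WT), 53 (FF minus Het), 1801 (Het against WT in ethanol) and 1087 (FF against Het). With a single library left out they ranged from 700 (without FF 4OHT C) to 2661 (without Het 4OHT A) for FF 4OHT against ethanol, 83 to 626 for FF minus WT and 68 to 479 for FF minus Het with the same libraries left out, 1332 to 2908 for FF against Het and 0 to 50 for FF against WT in ethanol. In Het 4OHT against ethanol they were 0 to 5 with a library left out and 12 without the 3 libraries that stood apart, and in WT 4 without these 3. Of the pathway lists in FF with a replicate block, calls were 5 receptors and ligands, 6 adaptors, 4 kinases, 2 other inhibitors and 9 targets. A replicate block changed the calls of none of the 10 genes other than those named here and Rel (Het against WT in ethanol). With 1 count worth 0.0203 to 0.0404 CPM, depth limits the genes near 1 CPM most.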

Other observations

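The letter of a library went with the level of several NF-kB genes in the FF and WT lines. Library A was the highest of its group in all 4 FF and WT groups for Rel and Nfkbiz, and library C for Nfkb2, Nfkbie and Bcl3. For Rel the A libraries were at 24.4 CPM in FF 4OHT, 12.9 in FF ethanol, 19.8 in WT 4OHT and 17.5 in WT ethanol, the highest value of each group. That is 5 of the 10 genes with the same letter highest in all 4 groups, against 11.2% of all 12859 tested genes, and for Nfkbia library B was the lowest in all 4, as was some letter for 10.6% of all tested genes. The pattern was noticed in these values and carries no test, and the labels do not say what a letter stands for. The library labelled FF ethanol C and the libraries labelled WT 4OHT C and WT ethanol C, which stood apart on Eif2s3y or Tgm2, are among those counted.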
